A study of Sus scrofa with 24 samples.

Results

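Small RNA was sequenced from porcine adipocytes in primary culture, and the entries described here are the miRNAs that were newly predicted from those reads and reached a mean of at least 1 TPM. Members were the rows named novel_miR in the deposited table whose mean over all 24 libraries was at least 1 TPM, without 8 entries that are not reported here, and rows with identical values in every library were counted once. This gave 142 miRNAs, from 152 rows, out of 1224 newly predicted entries and 1587 entries in all. TPM here is the number of reads of an entry per 1000000 reads counted on all listed miRNAs of that library. The members were thus chosen by their mean level, and their levels are given as a description. The 3 members nearest the limit were novel_miR_475, novel_miR_710 and novel_miR_492, each with a mean of 1.01 TPM, and the nearest new entries outside it were novel_miR_207, novel_miR_1012 and novel_miR_241, with 0.990, 0.979 and 0.973 TPM.

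Preadipocytes were taken from the back subcutaneous fat (BF) and the longissimus dorsi muscle (intramuscular, IMF) of 3 Yorkshire piglets aged 6 days. Cells were grown until nearly confluent, induced with 3-isobutyl-1-methylxanthine, dexamethasone and insulin, moved to insulin medium and later to growth medium, and collected on day 0 and after 2, 4 and 8 days. The groups are BF-0d, BF-2d, BF-4d, BF-8d, IMF-0d, IMF-2d, IMF-4d and IMF-8d, with 3 libraries each, where day 0 is the culture before induction and no group carries a genetic change. Neither the labels nor the methods tie a library to one piglet, so p-values measure the spread between these libraries, which may be technical.

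A miRNA is cut from the stem of a hairpin precursor and guides silencing complexes to mRNAs, mainly through its seed, bases 2 to 8 from its 5′ end. Prediction programs call a new miRNA where reads pile up on a genomic stretch that can fold into such a hairpin. An entry called in this way can be an unlisted ortholog of a conserved miRNA, a hairpin in a transposon copied many times, or a fragment of an intron or exon. Clusters of miRNAs in the imprinted DLK1-DIO3 region, which are transcribed from the maternal chromosome, are known from other placental mammals.

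Mature sequences were at hand for 64 of the 142 members (58 distinct sequences), and all of their precursors were found in Sscrofa11.1. Of the 58 sequences, 48 were 21 to 23 nt long and 32 began with U. In the genome, 36 occurred once, 9 had 2 to 10 exact copies, 6 had 11 to 100 and 7 had more than 100. For 26 sequences every copy lay in sequence that the assembly masks as repeats, and for 31 no copy did.

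The first set is shown because 9 members lie together on one unplaced scaffold of Sscrofa11.1 (NW_018084979.1), all on the plus strand, within 32.7 kb between positions 37912 and 70569. Each occurs once in the genome and no copy is repeat-masked. The mature sequences are given 5′ to 3′ in genomic order, with the seed in capitals.
novel_miR_638: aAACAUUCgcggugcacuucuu
novel_miR_716: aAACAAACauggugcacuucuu
novel_miR_2: aGAUAUUGcacgguugaucucu
novel_miR_1205: aUAAUACAugguuaaccucuuu
novel_miR_507: aGAGGCUGgccgugaugaauucg
novel_miR_966: aAAGGAUUcugcugucggucccacu
novel_miR_461: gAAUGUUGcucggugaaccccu
novel_miR_1112: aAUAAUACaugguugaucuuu
novel_miR_683: aAUAUUAUacagucaaccucu

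Their precursors start at 37912, 39725, 41677, 53533, 59550, 67949, 68873, 69171 and 70461 in the order shown. The RefSeq annotation places the known MIR376C, MIR376A and MIR381 between novel_miR_2 and novel_miR_1205, on the same strand, and DIO3, the deiodinase gene at one end of the imprinted region, further along the scaffold from 504081 to 506187. For 8 of the 9 precursors the annotation held no gene, and that of novel_miR_683 lay in an exon of the long non-coding RNA LOC110258356. As background, the letters of novel_miR_716, novel_miR_638, novel_miR_461 and novel_miR_683 are those by which miR-495, miR-543, miR-409-3p and miR-656 are known in other mammals, all of them miRNAs of this region. A further member, novel_miR_912, lay on the opposite strand from 503032 to 503142, next to DIO3.

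The second set is shown because it holds repeat-masked sequences, many copies of one sequence, or one sequence listed under several names.
novel_miR_667: uGUGGCUGuggcguaugccaac
novel_miR_209: uGUGGCUGuggcauggaccucagc
novel_miR_145: uGUGGCUGuggcauagacc
novel_miR_553: uGUGUCUGuggccuaggcuggcg
novel_miR_433: cAGCAAUGauggaucugagc
novel_miR_126: cCUGGCCUgggaacuuccauaugcc
novel_miR_11: uAAGGAUCuggcauugcuguga

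The 5-base motif UGUGG, searched on the strand of the mature sequence, was held by 18 of the 26 repeat-masked sequences, by 1 of the 32 other sequences of members and by 6 of 354 known sequences (1.69%). The motif was not among the planned groups of members, so these shares are a description only. The first 3 sequences of this set share their seed with ssc-miR-4331-3p, a known pig miRNA. novel_miR_667 and novel_miR_209 each occur once in the genome, at chr13:134833792-134833903 and chr8:46130268-46130380, both on the minus strand and both opposite an intron, of SNX4 and GRIA2. novel_miR_145 has 1129 exact copies, and novel_miR_1059 and novel_miR_1008 carry the same letters. The sequence of novel_miR_433 has 43 copies and is also that of novel_miR_1137, novel_miR_1018 and novel_miR_326. novel_miR_126 and novel_miR_11 have 3360 and 12286 copies. Reads of such sequences cannot be assigned to one place in the genome.

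The third set is shown for its position in or between annotated genes, and each has 1 copy in the genome except novel_miR_394 and novel_miR_266, which have 2.
novel_miR_542: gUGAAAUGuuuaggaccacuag
novel_miR_282: uCAGCUUCgggccuagauccugg
novel_miR_394: aAUGGAUUuuuggagcaggga
novel_miR_484: cUUCCUGUcuccuccuucccagu
novel_miR_927: uUAAGUGUgccuguuccuccagg
novel_miR_499: uCUGGUCUaugucuaucuccaac
novel_miR_486: cUGUUGCCacuaaccucaacc
novel_miR_266: uUUUUGAAguguaaauuca

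novel_miR_542 lay between ASPG and KIF26A on the scaffold named above, from 2527833 to 2527944, and its letters are those of miR-203, a miRNA of epidermis known in many vertebrates. novel_miR_282 lay in an intron of RPL7A, a ribosomal protein gene, at chr1:272963387-272963497 on the plus strand. In 3 members the 3′ end of the mature sequence fell within 2 bases of the 3′ end of an intron: novel_miR_484 (ACTN1, chr7:92559642-92559754, minus strand) and novel_miR_927 (COL6A3, chr15:137051061-137051172, minus strand) each ran 1 base into the next coding exon. novel_miR_499 (PAPPA, chr1:256689015-256689124, plus strand) stopped 2 bases before it. novel_miR_486 lay on the annotated hairpin of MIR744, at chr12:56464841-56464950 on the plus strand, on the arm opposite the listed ssc-miR-744. The precursor of novel_miR_394 lay opposite an intron of LOC106504828 (chr9:16627929-16628037, plus strand). That of novel_miR_266 lay opposite an intron of GXYLT1 (chr5:73286704-73286811, plus strand).

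Libraries held from 4954845 to 16863560 reads on listed miRNAs, so that 1 read was worth 0.0593 to 0.202 TPM. The members together took 0.233% to 0.412% of the reads of a library. Markers of other cells were summed as a check of the cultures: 6 of 7 listed skeletal muscle miRNAs were in the table, and their sum ran from 475 to 2362 TPM in BF and from 696 to 1739 TPM in IMF libraries. In BF this sum was 511 ± 34.7 TPM on day 2 and 1773 ± 533 on day 8 (SD, n = 3). The 4 blood miRNAs summed to 0.994 ± 0.248 TPM in IMF-0d, 0.589 ± 0.266 in IMF-4d and 6.68 ± 0.293 in IMF-8d, with 2 of them at 0 in every IMF library. The 6 mesenchymal miRNAs, which preadipocytes express, had sums on day 0 of 663572 ± 23300 TPM in BF and 666202 ± 28611 in IMF, and sums of 426393 ± 51490 and 510756 ± 19672 TPM on day 8. The endothelial pair summed to 26.4 to 90.9 TPM in BF and 18.2 to 40.4 TPM in IMF. In such bulk cultures fewer cells of a type and less RNA per cell cannot be told apart, and the part of these markers in the results below was not tested.

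Member levels were low. The median of their means was 2.63 TPM, against 36.9 TPM for the 270 known miRNAs above the same limit, and 59 members lay between 1 and 2 TPM, 39 between 2 and 5, 15 between 5 and 10, and 29 above 10. The 10 most abundant held 77.2% of all member reads. All 24 libraries had reads for 131 members, and 108 had at least 3 reads in every library. For 16 members the mean over the other 7 groups was under 1 TPM, so that they passed the limit only with their highest group, and a difference that involves that group is partly set by the rule.

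**Figure D1:**
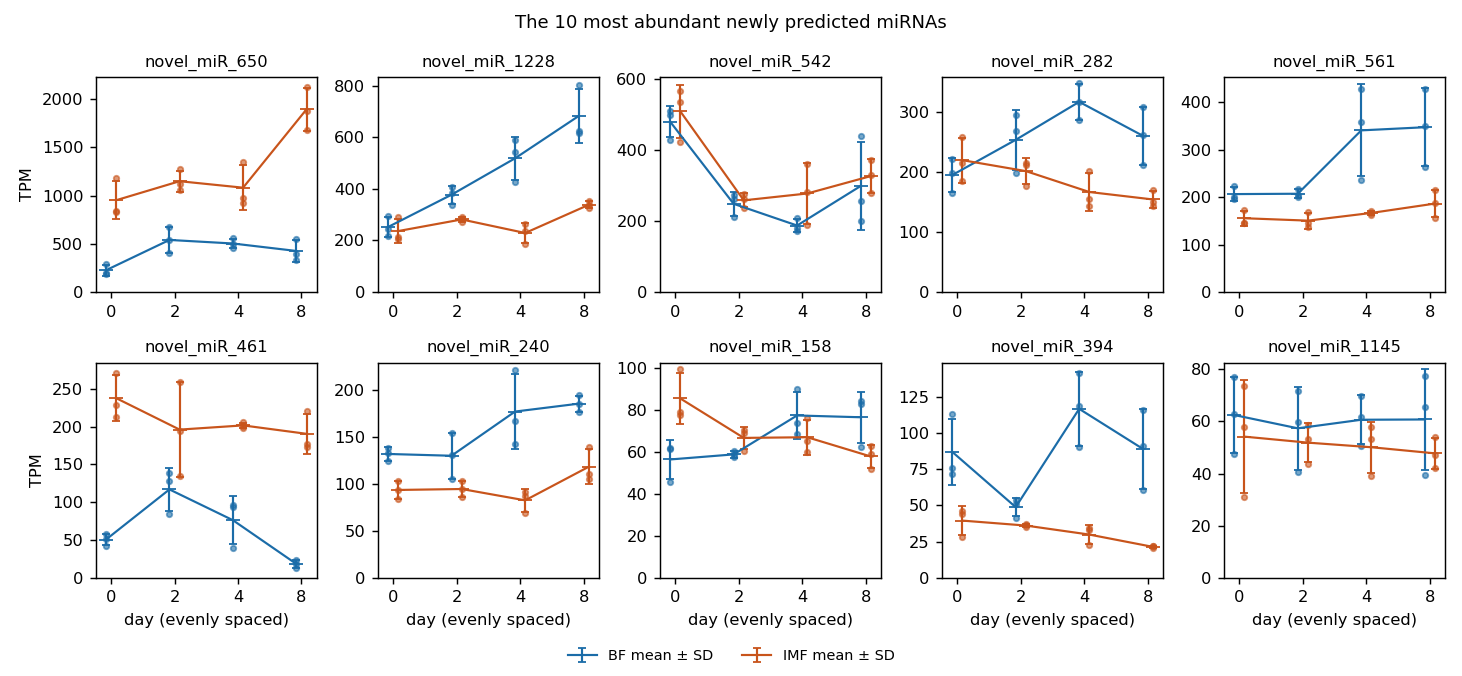
TPM (y axis, linear, from 0) of the 10 most abundant members on each day (x axis, evenly spaced), in BF (blue) and IMF (orange). Points are libraries, and lines join group means with bars of 1 SD (n = 3). novel_miR_650 lies higher in IMF on every day, from 225 TPM in BF-0d to 1895 TPM in IMF-8d, while novel_miR_1228 climbs from 252 to 682 TPM in BF.

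Among the most abundant members novel_miR_650, for which no sequence was at hand, led with a mean of 846 TPM. Its libraries read 196, 289 and 191 TPM in BF-0d, 541, 678 and 400 in BF-2d, 460, 493 and 556 in BF-4d, and 554, 392 and 330 in BF-8d. In IMF they read 834, 1178 and 843 on day 0, 1120, 1056 and 1271 on day 2, 918, 974 and 1353 on day 4, and 1683, 1873 and 2130 on day 8. The IMF libraries of each day lay above all BF libraries of that day. novel_miR_1228 had 252 ± 40.4 TPM in BF-0d and 682 ± 104 in BF-8d (SD, n = 3), with no overlap. novel_miR_542 had its highest mean before induction in both sources, with 480 ± 44.1 TPM in BF and 509 ± 75.3 in IMF, against 248 ± 33.6 and 258 ± 19.9 on day 2. novel_miR_282 had 318 ± 30.3 TPM in BF-4d and 167 ± 31.3 in IMF-4d, and novel_miR_394 had 117 ± 25.6 and 29.8 ± 6.56 TPM in the same groups. novel_miR_1145, a repeat-masked sequence with 35 copies, had group means from 47.7 to 62.4 TPM and was called in none of the 9 tests described below.

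The 2 sources were compared on each day by limma on log2(TPM + 1), over the 430 entries that passed the limit of 1 TPM, and a miRNA was called where the Benjamini-Hochberg FDR was under 0.05 and the fold change above 1.5. Log2 fold changes are IMF minus BF, and on this scale the change of a miRNA of low level is understated. In BF-0d vs IMF-0d 30 of the 142 members were called, 28 higher and 2 lower in IMF, beside 29.3% of all 430 entries (13.5% higher, 15.8% lower). BF-2d vs IMF-2d gave 11 members, 10 higher and 1 lower, beside 12.3% of all entries (5.81% higher, 6.51% lower). This count ranged from 0 to 12 when 1 library was left out, with 0 without IMF-2d replicate 1 or replicate 3, 1 without IMF-2d replicate 2, and 2 and 4 without BF-2d replicates 1 and 2. BF-4d vs IMF-4d gave 36 members, 17 higher and 19 lower, beside 36.3% of all entries (7.44% higher, 28.8% lower), and 23 members without IMF-4d replicate 1. BF-8d vs IMF-8d gave 49 members, 24 higher and 25 lower, beside 37.2% of all entries (12.1% higher, 25.1% lower). Without the 16 members that passed the limit only with their highest group, the counts were 29, 11, 33 and 42.

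The libraries of the sources did not overlap for 54 members on day 0 (38 higher and 16 lower in IMF), beside 47.7% of all entries (18.1% higher, 29.5% lower). On day 2 this held for 38 members (23 higher, 15 lower), beside 33.3% (12.8% higher, 20.5% lower). On day 4 it held for 61 (20 higher, 41 lower), beside 50.2% (9.07% higher, 41.2% lower). On day 8 it held for 66 (31 higher, 35 lower), beside 51.2% (16.3% higher, 34.9% lower).

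These splits depend on the scaling. With median-of-ratios scaling the median over all entries lay higher by 0.13, 0.11, 0.34 and 0.21 (log2) on days 0, 2, 4 and 8, and the percent of called members that were higher in IMF moved from 47.2 to 67.7 on day 4 and from 49.0 to 65.2 on day 8. On day 0 and day 2 it moved from 93.3 to 96.8 and from 90.9 to 100. The median log2 fold change over the members was 0.08, -0.05, -0.18 and -0.24 on the 4 days, beside -0.13, -0.14, -0.34 and -0.28 over all 430 entries. In all, 67 members were called between the sources on at least 1 day, beside 57.9% of all entries. On all 4 days 8 were called, all higher in IMF, beside 6.74% of all entries: novel_miR_650, novel_miR_884, novel_miR_716, novel_miR_190, novel_miR_1098, novel_miR_470, novel_miR_1112 and novel_miR_487. Since no member was called on day 2 without IMF-2d replicate 1 or without IMF-2d replicate 3, this count was then 0. novel_miR_793 was called in opposite directions on days 0 and 8.

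**Figure D2:**
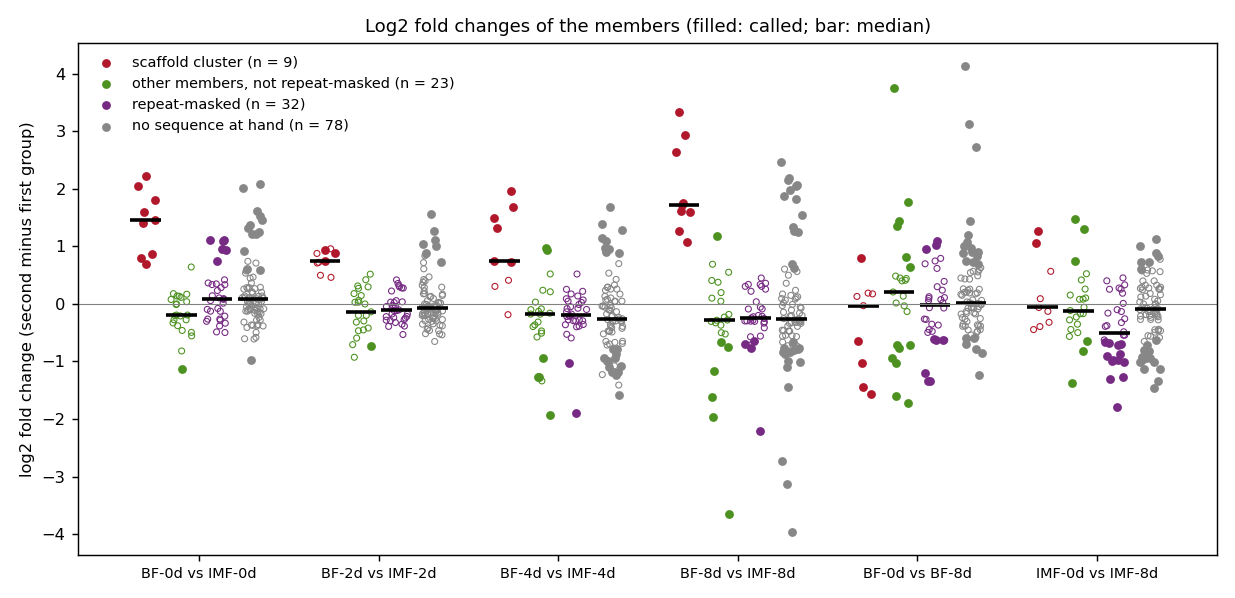
Log2 fold change (y axis, second minus first group, on the log2(TPM + 1) scale) of all 142 members in the 6 comparisons (x axis), as 9 members of the scaffold cluster, 23 others not fully repeat-masked, 32 repeat-masked and 78 with no sequence at hand. Filled points were called, open points were not, and bars are medians. Cluster members sit above 0 in each comparison of BF with IMF except 1 of them on day 4, and the repeat-masked set has its lowest median, -0.51, in IMF-0d vs IMF-8d.

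Every call between the sources in the scaffold cluster was higher in IMF. On day 0 and on day 8 all 9 were called higher in IMF, on day 2 it was 3 and on day 4 it was 6, where 13.5%, 12.1%, 5.81% and 7.44% of all entries were called higher, with medians of 1.46, 0.74, 0.75 and 1.71 on the log2 scale on days 0, 2, 4 and 8. The 3 calls of day 2 were lost without IMF-2d replicate 1 or replicate 3. Outside the cluster, the 22 members with no repeat-masked copy had medians of -0.20, -0.17, -0.18 and -0.28. After median-of-ratios scaling the cluster gave 9, 5, 7 and 9 members called higher and 0 called lower. The summed level of the 9 was 79.7 ± 8.00 TPM in BF-0d, 171 ± 46.8 in BF-2d, 122 ± 39.5 in BF-4d and 44.0 ± 8.00 in BF-8d (SD, n = 3). In IMF it was 343 ± 39.7, 292 ± 70.2, 300 ± 5.12 and 304 ± 43.0 TPM, and no IMF library of a day overlapped the BF libraries of that day.

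novel_miR_461 had the highest level of the 9 in every group. Its BF libraries read 51.9, 57.3 and 42.2 TPM on day 0, 128, 139 and 84.2 on day 2, 93.1, 96.2 and 39.2 on day 4, and 13.2, 17.7 and 23.6 on day 8. Its IMF libraries read 213, 229 and 271 TPM on day 0, 194, 259 and 134 on day 2, 199, 206 and 200 on day 4, and 221, 173 and 178 on day 8. The sources overlapped on day 2 and on no other day. By limma the log2 fold changes were 2.22 (SE 0.16, adjusted p = 0.000698) on day 0, 0.72 (SE 0.30, adjusted p = 0.169) on day 2 and 3.35 (SE 0.21, adjusted p = 5.24e-08) on day 8, and it was also called on day 4 (adjusted p = 0.00276).

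novel_miR_716 had the same order of means over the days of BF, with means from 3.02 TPM in BF-8d to 15.1 in BF-2d, and from 29.4 to 32.7 TPM in IMF. It was called higher in IMF on each day, by 2.05, 0.94, 1.97 and 2.94 on the log2 scale (limma adjusted p = 0.00144, 0.0132, 0.00028 and 6.37e-07), and on day 2 the call held in 2 of the 6 fits without a library. novel_miR_638 fell in BF from 5.61, 4.31 and 3.44 TPM on day 0 to 0.857, 1.29 and 0.404 on day 8, a log2 fold change of -1.57 (SE 0.26, limma adjusted p = 0.00015), while IMF-8d kept 10.4 ± 2.10 TPM. In BF-8d novel_miR_966 had reads in 1 of 3 libraries, 0.104 ± 0.180 TPM, against 2.34 ± 0.259 in IMF-8d.

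In this cluster 2 of the 9 members were called higher on day 8 than on day 0 in IMF, where 19.8% of all 430 entries were. novel_miR_683 had 6.93 ± 2.07 TPM in IMF-0d and 17.8 ± 2.22 in IMF-8d (log2 fold change 1.27, SE 0.23, limma adjusted p = 0.00768), and it also rose in BF, from 3.47 ± 0.367 to 6.80 ± 1.24 TPM. novel_miR_1112 had 3.27 ± 0.563 and 8.08 ± 2.14 TPM in IMF (1.07, SE 0.22, adjusted p = 0.0112), while it was not called from day 0 to day 8 in BF. For 5 of the 9 the time course differed between BF and IMF in the interaction test, which called 31.6% of all entries. The known ssc-miR-381-3p, from the hairpin in the middle of the cluster, averaged 4368 ± 444 TPM in BF and 19660 ± 3089 in IMF on day 0, and 6006 ± 783.2 against 30050 ± 4616 on day 8. It was called higher in IMF on each day, by 2.16, 1.13, 1.25 and 2.32 on the log2 scale. novel_miR_912, on the other strand near DIO3, went the other way, with 1.49 ± 0.204 and 0.897 ± 0.718 TPM in the BF and IMF cultures of day 0, and 3.77 ± 2.45 and 0.449 ± 0.404 TPM in those of day 8. It was called lower in IMF on days 4 and 8.

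**Figure D3:**
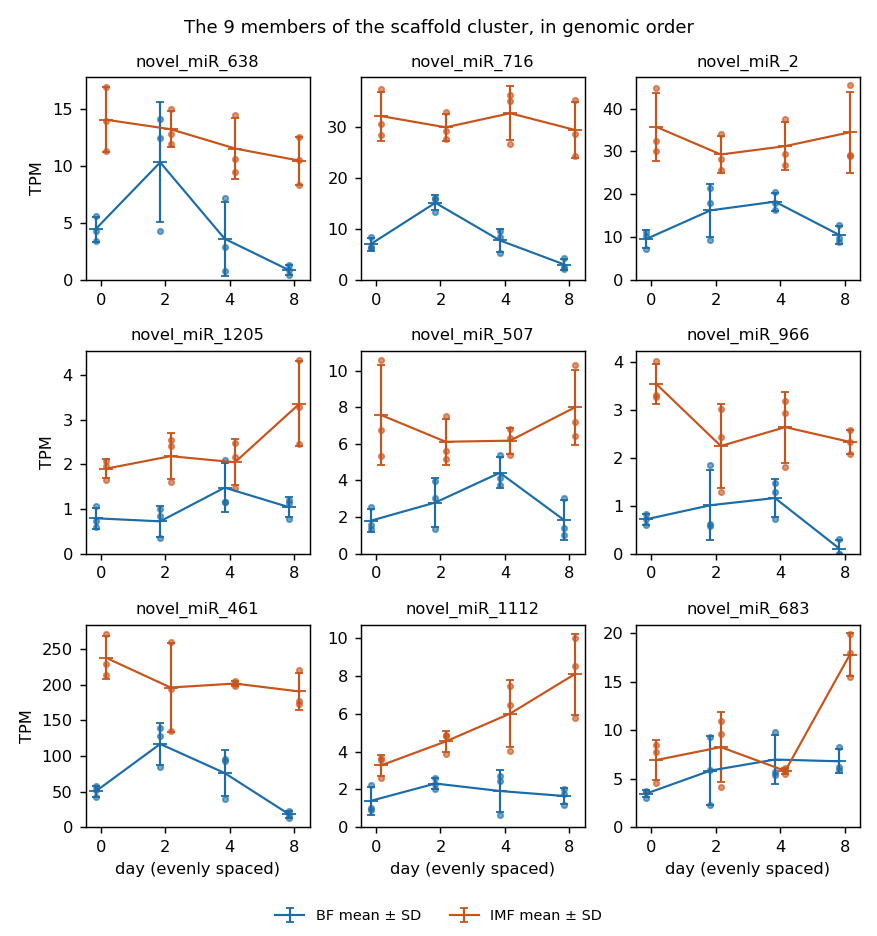
TPM (y axis, linear, from 0) of the 9 cluster members in genomic order on each day (x axis, evenly spaced), in BF (blue) and IMF (orange). Points are libraries, and lines join group means with bars of 1 SD (n = 3). IMF means lie above BF means in every panel on days 0, 2 and 8, and novel_miR_683 is the panel where the BF mean of day 4 (6.98 TPM) lies above that of IMF (5.81 TPM).

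Several members with no sequence at hand had the same direction as the cluster, and others had the opposite one. Of these 78 members, 13 were called higher and 1 lower in IMF on day 0, and 7 and 0 on day 2. On day 4 it was 9 and 13, and on day 8 it was 14 and 15, beside the shares of all entries given above. novel_miR_884 had 8.11 ± 3.37, 13.9 ± 4.00, 12.6 ± 1.12 and 4.53 ± 0.715 TPM in BF on days 0, 2, 4 and 8, and 34.8 ± 8.90, 25.9 ± 1.08, 28.8 ± 1.24 and 29.7 ± 3.71 in IMF (SD, n = 3). novel_miR_1098 lay between 4.15 and 6.63 TPM in the BF groups and between 17.0 and 20.2 in the IMF groups. novel_miR_487 had 0.460 to 0.511 TPM as group means in BF and 2.54 to 3.88 in IMF, with no overlap on any day. In BF-2d vs IMF-2d, novel_miR_650, novel_miR_487 and novel_miR_1098 had the largest rises, by 1.12, 1.56 and 1.27 on the log2 scale (limma adjusted p = 0.0217, 0.01 and 0.0304), and each call was lost in 2 or more of the 6 fits without a library.

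On day 0, 2 members were called lower in IMF. They were novel_miR_394, with 71.4, 113 and 75.9 TPM in BF and 44.1, 46.4 and 27.8 in IMF, and novel_miR_127, with 5.03 ± 0.736 and 2.05 ± 0.220. The call of novel_miR_394 was lost after median-of-ratios scaling (log2 fold change -0.94, adjusted p = 0.0685) and held in 1 of the 6 fits without a library. Its later differences were -1.93 on day 4 (SE 0.26, limma adjusted p = 0.00028) and -1.96 on day 8 (SE 0.22, adjusted p = 9.75e-06). On day 2 the 1 member called lower was novel_miR_568, from an intron of LOC102161833, with 2.32 ± 0.623 TPM in BF and 0.986 ± 0.107 in IMF, which held in 3 of 14 alternatives. On day 4 the largest falls beside novel_miR_394 were those of novel_miR_11, from 3.21 ± 1.03 to 0.115 ± 0.131 TPM, which passed the limit of 1 TPM only with BF-4d, and novel_miR_885, from 7.92 ± 3.18 to 1.87 ± 0.514 TPM. novel_miR_282, novel_miR_561 and novel_miR_240 were called lower in IMF on days 4 and 8, and after median-of-ratios scaling novel_miR_561 on day 8 was the one of these calls that remained.

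From day 0 to day 8 of differentiation, 48 members were called in BF, 25 higher and 23 lower on day 8, beside 42.8% of all 430 entries (27.9% higher, 14.9% lower). Under median-of-ratios scaling 20 were higher and 30 lower, so the percent higher moved from 52.1 to 40.0, and without BF-0d replicate 3 the count was 31. In IMF 42 members were called, 12 higher and 30 lower, beside 30.5% of all entries (19.8% higher, 10.7% lower). Both sources called 19 members, beside 18.4% of all entries, and 2 of these moved in opposite directions, novel_miR_126 and novel_miR_793. Of these 19, novel_miR_459, novel_miR_71, novel_miR_473 and novel_miR_575 had nearly the same reads in every library, such as 17, 6 and 7 in BF-8d. Their calls are thus not separate results. Over all 4 days the moderated F test called 46 members within BF and 54 within IMF, beside 46.0% and 37.7% of all entries. Without IMF-8d replicate 2 the IMF count was 35. Without the 16 members that passed the limit only with their highest group, the counts were 40 and 41 from day 0 to day 8 in BF and IMF, and 39 and 50 over all days.

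novel_miR_927 and novel_miR_484, the sequences that end at an intron boundary, changed in opposite directions in BF. novel_miR_927, from COL6A3, a gene of collagen VI, read 2.26, 1.92 and 1.07 TPM in BF-0d and 8.02, 9.35 and 7.27 in BF-8d, and 1.59, 1.09 and 1.35 in IMF-0d and 4.50, 4.41 and 5.53 in IMF-8d. It rose in BF by 1.76 (SE 0.25, limma adjusted p = 2.36e-05) and in IMF by 1.31 (SE 0.14, adjusted p = 0.00165) on the log2 scale, with no overlap in either. novel_miR_484, from ACTN1, which encodes an actin cross-linker, had 4.94 ± 1.60 TPM in BF-0d and 0.956 ± 0.526 in BF-8d (log2 fold change -1.61, SE 0.28, adjusted p = 0.000186), and 4.09 ± 0.457 and 3.34 ± 0.278 in IMF. novel_miR_499, from PAPPA, had group means of 1.02 to 1.98 TPM and was not called from day 0 to day 8 in either source. novel_miR_486, the second arm of MIR744, had group means of 1.26 to 2.55 TPM, against a mean of 301 TPM for ssc-miR-744, and was called higher in BF-8d than in BF-0d, by 0.65 on the log2 scale, a call that held in 3 of 14 alternatives.

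Members that fell in both sources included novel_miR_524, from an intron of PLXNA2, a plexin gene. Its BF level went from 3.46 ± 0.0336 to 0.399 ± 0.403 TPM between days 0 and 8, and its IMF level from 3.71 ± 1.28 to 0.790 ± 0.375 TPM (SD, n = 3). novel_miR_528 went from 28.0 ± 4.29 to 15.1 ± 2.93 TPM in BF and from 36.2 ± 3.11 to 15.9 ± 1.37 in IMF. novel_miR_542 also fell, by 0.76 in BF and by 0.64 in IMF on the log2 scale (limma adjusted p = 0.0191 and 0.0228). Its BF libraries of day 0 and day 8 overlapped, and the calls held in 3 and 2 of the 6 fits without a library. novel_miR_531, whose precursor overlaps coding sequence of ZHX1, was called higher on day 8 in both, with 3.24 ± 2.23 TPM in BF-8d and 5.28 ± 1.12 in IMF-8d against 0.452 ± 0.340 and 1.24 ± 0.398 on day 0.

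Every call among the repeat-masked members from day 0 to day 8 of IMF was a fall. Of the 32 members whose copies are all repeat-masked, 13 were called lower and 0 higher in IMF-0d vs IMF-8d, where 10.7% of all entries were lower and 19.8% higher, with a median log2 fold change of -0.51, beside -0.15 over all members and 0.07 over all 430 entries. In BF-0d vs BF-8d 6 were called lower and 3 higher, where 14.9% and 27.9% of all entries were, with a median of -0.02. Their summed level was 247 ± 47.2 TPM in IMF-0d and 173 ± 8.31 in IMF-8d, with no overlap, and 231 ± 33.0 and 210 ± 39.3 in BF-0d and BF-8d, with overlap. After median-of-ratios scaling 15 were called lower in IMF and 0 higher. These 32 members hold 26 distinct sequences, and the 13 falls count the 1 sequence of novel_miR_433 4 times.

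novel_miR_667 was the repeat-masked member with the largest fall in IMF. Its libraries read 26.5, 19.4 and 35.7 TPM in IMF-0d and 7.17, 6.75 and 6.84 in IMF-8d (log2 fold change -1.79, SE 0.22, limma adjusted p = 0.00232). In BF they read 14.6, 11.3 and 14.1 on day 0 and 6.47, 12.4 and 6.86 on day 8, which overlapped. novel_miR_553 went from 9.90 ± 0.733 to 4.57 ± 0.0955 TPM in IMF. The sequence of novel_miR_433 is listed as 4 members. Their levels were, for novel_miR_433, 1.11 ± 0.184 TPM on day 0 of BF and 3.56 ± 0.543 on day 0 of IMF, and for novel_miR_1137 2.59 ± 0.288 and 5.06 ± 0.538, with novel_miR_326 and novel_miR_1018 between these. Each of the 4 was called higher in IMF on day 0 and lower on day 8 than on day 0 in IMF, and these calls count 1 sequence 4 times. In the same way novel_miR_145 and novel_miR_1059 had group means of 7.55 to 12.2 and 6.86 to 11.7 TPM and were called in none of the 6 comparisons. novel_miR_1008, with the same letters, had a mean of 1.12 TPM, so entries of 1 sequence did not all hold the same reads. The 21 repeat-masked members that hold UGUGG ran from 1.12 to 55.6 TPM in their means, and 7 of them were called lower and 0 higher in IMF-0d vs IMF-8d, with a median of -0.32 on the log2 scale. In BF-0d vs BF-8d 6 were called lower and 1 higher, with a median of -0.37. Of all entries, 10.7% were called lower and 19.8% higher in IMF-0d vs IMF-8d, and 14.9% and 27.9% in BF-0d vs BF-8d. The 21 members hold 18 distinct sequences.

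Whether a time course differed between the sources was tested by the interaction of source and day over all 24 libraries, which called 37 members, beside 31.6% of all 430 entries. The count was 24 without BF-0d replicate 2, IMF-0d replicate 1, IMF-8d replicate 1 or IMF-8d replicate 2, and 32 without the 16 members that passed the limit only with their highest group. novel_miR_744, which is not MIR744, novel_miR_266 and novel_miR_39 are among those 16, and had reads almost only in late BF cultures. On day 8 the BF libraries of novel_miR_744 averaged 17.6 ± 7.91 TPM (SD, n = 3; the lowest BF library was above every IMF library), those of novel_miR_266 read 10.7, 17.9 and 10.1, and those of novel_miR_39 read 9.97, 6.29 and 7.27. All 3 were at 0 in BF-0d, IMF-0d, IMF-2d and IMF-4d, and IMF-8d had at most 0.457 TPM in a library. Against the floor of 3 reads per library in BF-0d, the mean of BF-8d was at least 81.7-fold, 59.7-fold and 36.3-fold higher. These bounds leave out the spread of the BF-8d libraries, and the rule of selection partly set them. On day 4 a single library, BF-4d replicate 1, held 11.5, 10.3 and 5.04 TPM of the 3, while BF-4d replicates 2 and 3 held 0.423 TPM or less. novel_miR_236, another of the 16, had 54 reads in BF-4d replicate 1, and 2 and 5 in replicates 2 and 3. It had 91, 50 and 15 reads in BF-8d and 0 in every IMF library. For novel_miR_39 the interaction was called by limma (adjusted p = 0.000107), and neither edgeR (adjusted p = 1) nor DESeq2 (0.735) on whole reads called it.

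**Figure D4:**
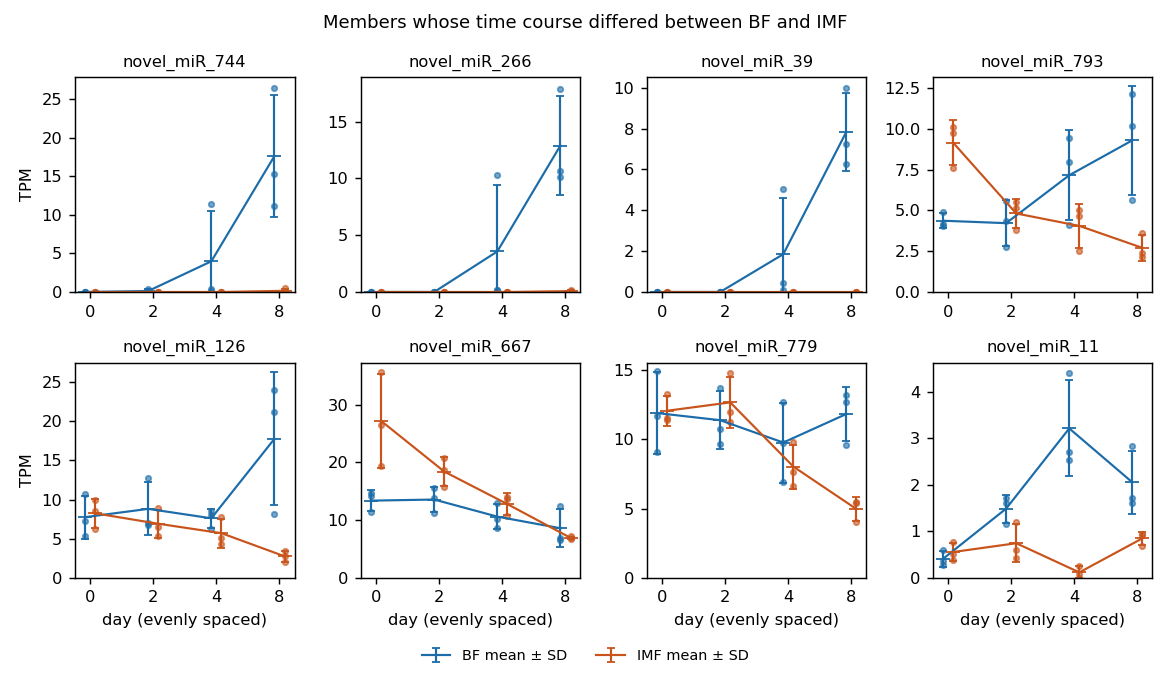
TPM (y axis, linear, from 0) of 8 members whose time course differed between the sources, on each day (x axis, evenly spaced), in BF (blue) and IMF (orange). Points are libraries, and lines join group means with bars of 1 SD (n = 3). The first 3 panels stay at or near 0 except in BF-4d replicate 1 and in BF-8d, and novel_miR_793 and novel_miR_126 end higher in BF and lower in IMF.

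novel_miR_793 crossed between the sources. It read 4.16, 4.91 and 4.03 TPM in BF-0d and 10.1, 9.73 and 7.58 in IMF-0d, but 5.61, 10.2 and 12.1 in BF-8d and 3.58, 2.14 and 2.38 in IMF-8d. The IMF libraries were above those of BF on day 0 (called, log2 difference 0.91, SE 0.16, limma adjusted p = 0.0104) and below them on day 8 (called, -1.44, SE 0.28, adjusted p = 0.000944). novel_miR_126, with 3360 genomic copies, had 17.8 ± 8.49 TPM in BF-8d and 2.74 ± 0.718 in IMF-8d, a log2 difference of -2.21 (SE 0.34, adjusted p = 0.000142), and within BF its day 0 and day 8 libraries overlapped. novel_miR_779 had 11.8 ± 1.97 TPM in BF-8d and 4.96 ± 0.838 in IMF-8d, against 11.9 ± 2.96 and 12.1 ± 1.08 on day 0. novel_miR_978, from a stretch with no annotated gene, rose in BF from 1.21 ± 0.0749 to 4.66 ± 0.740 TPM (log2 fold change 1.35, SE 0.23, limma adjusted p = 0.000189). It was also called higher on day 8 in IMF, from 0.540 ± 0.378 to 1.55 ± 0.532 TPM (0.74, SE 0.24, adjusted p = 0.0474), a call that held in 1 of the 6 fits without a library, and its time course was not called different between the sources (adjusted p = 0.139). Of the 142 members, 36 were called in none of the 9 tests, and 80.5% of all 430 entries were called in at least 1.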

How the data were processed

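The values analysed were deposited by the authors as RPM, which they name TPM: reads per 1000000 reads counted on listed miRNAs of a library. The authors mapped clean reads to Sscrofa11.1 without mismatch by Bowtie, removed annotated tRNA, rRNA, snoRNA and snRNA, assigned known miRNAs by BLAST to miRBase, predicted new ones by miRDeep2 and tested them with DESeq2, whose versions for the miRNA data are not given in the sources used here. All 38088 values lay within 0.01 reads of a whole read, so reads were recovered. Sequences came from the supplementary list of the study, which was used in part, and were placed on RefSeq Sscrofa11.1, with hairpins folded by RNAfold.

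Groups were taken from the sample labels, and errors are SD over 3 libraries. Tests were run in R 4.3.3 with limma 3.58.1, whose eBayes step used a mean-variance trend, on log2(TPM + 1) of the 430 entries that reached 1 TPM on average, each comparison on its own 6 libraries, the F tests over days on the 12 of a source and the interaction on all 24. Calls needed an FDR under 0.05 and, between pairs of groups, a fold change above 1.5. Alternatives were a pseudocount of 0.1, no filter, one fit of all libraries, median-of-ratios scaling, the replicate number as a block, identical entries once, edgeR 4.0.16 and DESeq2 1.42.0 on whole reads, and leaving out each library. The fits were tested on simulated data. Python 3.11.15 and Numba 0.67.0 counted genomic copies. Floors of 3 reads cover counting error only, since duplicate molecules were not removed. The members, lists and tests were chosen with earlier results of these data known. Named are the 10 most abundant members, the 3 largest called rises and falls of each comparison without overlap, the 5 smallest p of each F test, members on an annotated miRNA hairpin, sharing a known seed or sharing a sequence, the new miRNAs among the study's key miRNAs, and those next to the limit. The cluster, its annotated neighbours, the members at intron ends, those called on all 4 days and novel_miR_912 were named after their values were seen. The same holds for novel_miR_236 and for the members with nearly the same reads in every library. The mRNA libraries and target genes were not analysed here.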

Additional observations from a re-analysis of the deposited data

Results flagged for a closer look

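The time course of 23 of the 50 named members differed between BF and IMF in the interaction test of limma over all 24 libraries, beside 31.6% of all entries. The naming rule took 5 members for their smallest p in this same test, so the count is raised by the choice. In the scaffold cluster the adjusted p was 0.000129 for novel_miR_461, 0.00025 for novel_miR_716 and 0.0212 for novel_miR_638, whose BF means were highest on day 2 and lowest on day 8, and which were not called from day 0 to day 8 in IMF.

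Among the most abundant members it was 0.00722 for novel_miR_650, 0.00555 for novel_miR_1228, 0.0116 for novel_miR_282, 0.0143 for novel_miR_158 and 0.00176 for novel_miR_394. For 3 members that passed the limit of 1 TPM only with BF-8d, so that the rule partly set their difference, it was 0.000292 for novel_miR_744, 0.000292 for novel_miR_266 and 0.000107 for novel_miR_39.

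Among members with repeat-masked copies it was 0.000269 for novel_miR_11, which passed that limit only with BF-4d, 0.0401 for novel_miR_667, 0.0492 for novel_miR_553, 0.000864 for novel_miR_126 and, for the 4 entries with 1 shared sequence, 0.0483 (novel_miR_1137), 0.048 (novel_miR_1018), 0.0253 (novel_miR_326) and 0.037 (novel_miR_433). The remaining ones were novel_miR_793 (0.000269), novel_miR_779 (0.00871), novel_miR_484 (0.0183) and novel_miR_885 (0.0352).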

How the results depend on the processing

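Over the alternatives, 133 of 153 counts of called members stayed within 1.5 times the value given. Without the filter on low values the counts were 18 for BF-0d vs IMF-0d, 0 for BF-2d vs IMF-2d, 12 for BF-4d vs IMF-4d, 27 for BF-0d vs BF-8d, 18 for IMF-0d vs IMF-8d, 32 over the days of IMF and 18 for the interaction, where many more entries were tested. With the replicate number as a block BF-2d vs IMF-2d gave 1. The numbers were not taken to pair the libraries, since same-numbered deviations correlated by -0.33 to 0.51 over the comparisons and by more than 0.1 in every pair only for BF-0d vs IMF-0d, where the block gave 27. Leaving out 1 library gave 22 to 27, 0 to 12, 23 to 42 and 42 to 59 members for BF against IMF on days 0, 2, 4 and 8, 31 to 43 in BF-0d vs BF-8d, 29 to 44 in IMF-0d vs IMF-8d, 35 to 53 and 35 to 52 over the days of BF and IMF, and 24 to 38 for the interaction. For the 48 results that were named for their largest changes or smallest p, 39 of the 807 values under the alternatives lost the call, and those of comparisons between pairs of groups all kept their direction, which an F test does not have. Other calls of named members, which were not among these 48, were lost more often, as given beside them. The median over members was 27.5 reads per library, and the size of change that this depth can show was not measured.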
